A study of Homo sapiens with 19 samples.

Results

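The 204 regions described here are superenhancers that were listed in MDA-MB-231 breast cancer cells with forced OCT-2 and had no counterpart in the matched GFP control. They were chosen by position: of the 518 superenhancers of the OCT-2 cells on chromosomes 1 to 22 and X, these 204 overlapped none of the 337 control superenhancers by 1 bp or more, and the other 314 did. The absence of a control superenhancer is therefore what chose them and is not a finding. The lists differ in length, and among the 337 widest regions of the OCT-2 cells 106 overlapped no control superenhancer. They are called OCT-2-only superenhancers below, and the 314 others are called shared.

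MDA-MB-231 is a human triple-negative breast cancer line. 231Pa_Luc+OCT-2 cells are its parental derivative with stable luciferase and POU2F2 transgenes, and 231Pa_Luc+GFP control cells carry luciferase and GFP instead, so both lines carry luciferase and both are polyclonal pools. H3K27ac was precipitated in both lines and OCT-2 in the OCT-2 cells alone, with 2 replicates for each of these 3 groups. The deposited values are 3 interval lists, each merged by the authors from both replicates. They hold positions in hg38 without read counts, and the depth of the libraries is unknown. In a polyclonal pool, acetylation in more cells and more acetylation per cell cannot be told apart, and an interval list does not show how much H3K27ac the control cells carried at a place that was not listed.

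Superenhancers are long stretches of clustered enhancers with dense H3K27 acetylation, and they often lie at genes that are strongly expressed in a cell type. OCT-2, the product of POU2F2, is a POU-domain transcription factor best known from B lymphocytes, and it binds the octamer, an 8-base element whose letters are ATGCAAAT. The POU2F2 gene itself lay in a shared superenhancer of 58.9 kb, and interval lists do not show the transgene. None of 15 B-cell genes listed as targets or partners of OCT-2 met an OCT-2-only or a shared superenhancer. None of the 55 markers of 5 other cell types (leukocyte, endothelial, fibroblast, neural or melanoma, and luminal epithelial) met either class. An endothelial marker, not met, was the nearest protein-coding gene of 1 OCT-2-only region. These lists are short, with 8 to 19 genes each. ITGB2, which encodes the beta chain of leukocyte integrins, and CD34 are not on them, and each met an OCT-2-only superenhancer. Of 24 markers of mesenchymal cancer cells, 0 met an OCT-2-only superenhancer and 7 met a shared one, among them VIM, CD44 and AXL. Of all protein-coding genes, 1.76% met an OCT-2-only superenhancer and 3.57% a shared one. With shares this low, counts of 0 on short lists say little about cell type.

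Promoter sequence is shown first where the OCT-2 peaks or the octamer reach the start of a gene inside these superenhancers. A promoter window here is the 300 bases from 250 before a transcription start to 50 from it, taken from RefSeq (GRCh38.p14). Of 341 such windows of protein-coding genes inside OCT-2-only superenhancers, 4 held an octamer on either strand, against 21 of 750 in shared superenhancers and 1.65% of all 22132 windows. The 4 belonged to IL1B, PRRC2A, TOP1 and ZSWIM6. Those of PRRC2A and TOP1 also held an OCT-2 peak. In the sequences of PRRC2A, TOP1 and IL1B the capitals mark the octamer, read on either strand. PRRC2A, an RNA-binding protein gene, is read on the plus strand of chr6:31620465-31620764, and TOP1, which encodes DNA topoisomerase I, on the plus strand of chr20:41028572-41028871. IL1B, which encodes the inflammatory cytokine interleukin-1 beta, is read on the minus strand of chr2:112836730-112837029.
PRRC2A: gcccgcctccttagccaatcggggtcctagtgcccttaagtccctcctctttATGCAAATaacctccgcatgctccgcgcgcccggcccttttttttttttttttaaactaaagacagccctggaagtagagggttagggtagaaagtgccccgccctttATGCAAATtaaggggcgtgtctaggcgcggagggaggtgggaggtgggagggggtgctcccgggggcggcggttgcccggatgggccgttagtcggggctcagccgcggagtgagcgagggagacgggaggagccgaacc
TOP1: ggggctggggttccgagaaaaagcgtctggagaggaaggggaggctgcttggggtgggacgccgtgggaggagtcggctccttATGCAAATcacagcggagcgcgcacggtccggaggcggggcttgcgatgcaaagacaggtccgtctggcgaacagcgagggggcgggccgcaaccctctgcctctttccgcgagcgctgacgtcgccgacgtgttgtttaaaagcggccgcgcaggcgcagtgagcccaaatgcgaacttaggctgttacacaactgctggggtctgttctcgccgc
IL1B: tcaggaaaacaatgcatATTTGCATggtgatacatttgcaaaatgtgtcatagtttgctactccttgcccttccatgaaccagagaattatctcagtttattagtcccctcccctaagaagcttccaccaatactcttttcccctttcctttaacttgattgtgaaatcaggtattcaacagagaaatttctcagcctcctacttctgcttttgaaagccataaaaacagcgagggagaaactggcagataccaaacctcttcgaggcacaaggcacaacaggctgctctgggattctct

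The PRRC2A window had octamers beginning 198 and 90 bases before the start, and the peak on it was centred 108 bases before the start. In TOP1 the octamer began 167 bases before the start and the peak was centred 231 bases before it. The IL1B octamer began 233 bases before the start, and no OCT-2 peak met that window. A matching octamer describes the letters of the window and does not show binding. Only exact matches to the octamer letters were counted, so a window without one may hold a near match.

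Windows with a peak and no exact octamer are shown for BIRC3 and WWTR1, whose products act in nuclear factor kappaB and Hippo signalling. Here the capitals mark the bases under the OCT-2 peak, 243 of the 300 bases for BIRC3 and 256 of 300 for WWTR1. BIRC3 is read on the plus strand of chr11:102317234-102317533 and WWTR1 on the minus strand of chr3:149657976-149658275.
BIRC3: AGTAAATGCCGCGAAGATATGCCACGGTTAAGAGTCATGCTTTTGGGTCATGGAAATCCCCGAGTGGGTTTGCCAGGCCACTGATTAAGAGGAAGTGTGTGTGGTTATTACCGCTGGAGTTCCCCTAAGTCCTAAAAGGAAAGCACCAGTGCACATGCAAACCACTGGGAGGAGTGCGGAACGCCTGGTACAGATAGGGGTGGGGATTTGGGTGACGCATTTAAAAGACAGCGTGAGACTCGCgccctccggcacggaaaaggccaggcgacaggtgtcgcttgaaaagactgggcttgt
WWTR1: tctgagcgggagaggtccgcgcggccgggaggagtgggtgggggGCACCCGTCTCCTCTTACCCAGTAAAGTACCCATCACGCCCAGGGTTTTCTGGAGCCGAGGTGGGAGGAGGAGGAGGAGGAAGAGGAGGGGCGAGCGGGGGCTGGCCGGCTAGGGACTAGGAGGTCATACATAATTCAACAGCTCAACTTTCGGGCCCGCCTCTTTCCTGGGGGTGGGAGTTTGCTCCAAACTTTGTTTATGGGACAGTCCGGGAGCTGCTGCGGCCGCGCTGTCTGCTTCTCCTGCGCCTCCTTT

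Both peaks were centred upstream of the start of the window's transcript, 157 bases before it in BIRC3 and 75 bases before it in WWTR1. That start of WWTR1 lies inside the annotated gene body. Of the 18 windows with an OCT-2 peak in OCT-2-only superenhancers, 2 held the octamer (11.1%, exact 95% interval 1.38 to 34.7%). Over all windows with an OCT-2 peak the share was 67 of 392 (17.1%), and in shared superenhancers it was 9 of 36 (25%). Other short elements were about as frequent in OCT-2-only windows as in all windows. TGANTCA, the AP-1 element, was in 7.92% of OCT-2-only windows and 6.15% of all windows. CATTCC, the TEAD element, was in 13.5% and 12.2%, and CANNTG, the E-box, in 62.5% and 65.1%. Each was searched on both strands, and the elements may overlap one another.

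The rule left no OCT-2-only region in contact with a control superenhancer, and the gaps given here describe that choice. The OCT-2-only region nearest to a control superenhancer, at GPANK1 on chromosome 6, lay 24.8 kb from it. The smallest gap between any 2 superenhancers of the OCT-2 cells was much the same, 24.9 kb. The shared region with the least overlap, in AFF3, was already covered by control superenhancers over 35.8% of its width. The next least covered were PHC2 with 41.1%, SYNJ2 with 41.6% and ITGA2 with 44.6%. The median shared region was covered over 99.9% of its width, and 7 of 314 were covered over less than 50%. No region of the OCT-2 cells was covered over more than 0 and less than 35.8% of its width.

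Distances to the nearest control superenhancer ranged widely. Over the 202 regions with a control superenhancer on their chromosome, the median distance was 1822 kb and the quartiles were 511 and 6428 kb. 16 of the 204 regions lay within 50 kb of a control superenhancer, 4 between 50 and 100 kb, and 30 between 100 and 500 kb. A further 20 lay between 500 and 1000 kb, 70 between 1000 and 5000 kb, and 62 beyond 5000 kb. The remaining 2 regions were on chromosome 13, where no control superenhancer was listed. For comparison, shared regions lay a median of 1245 kb from the nearest control superenhancer that they did not overlap.

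**Figure D1:**
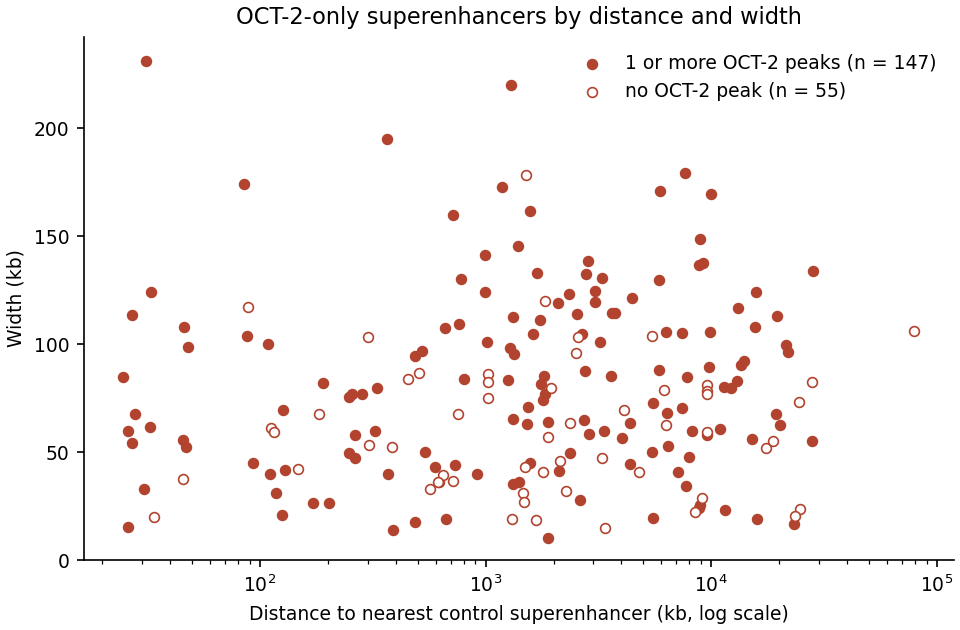
Each point is 1 of the 202 OCT-2-only superenhancers with a control superenhancer on its chromosome, placed by distance to it (kb, log scale) and width (kb). Filled points hold 1 or more OCT-2 peaks and open points hold none. Filled and open points lie side by side over most of the range, and no point lies closer than 24.8 kb.

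After GPANK1, the next nearest were a 15.3 kb region 25.9 kb away near AKR1E2 and a 59.8 kb region 26.0 kb away at JUN, which encodes the AP-1 subunit c-Jun. A second region near JUN followed at 27 kb. The fifth was a 113 kb region at HIF1A, the oxygen-sensitive subunit of hypoxia-inducible factor, 27.2 kb away. The widest OCT-2-only region of all, 231 kb with 1 OCT-2 peak, lay 31.1 kb from a control superenhancer and 27.7 kb from CEBPB, the gene of a C/EBP transcription factor, and met no protein-coding gene.

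At the far end, a 106 kb region at SYNGR3 on chromosome 16 was 79355 kb from the only control superenhancer of that chromosome. It met 14 protein-coding genes and held no OCT-2 peak. The region at ARHGAP18 was 28248 kb away, with 134 kb and 2 peaks. The region nearest to DLX2, a homeobox gene, was 28097 kb away with no peak, and the region in ITGA6, the laminin-binding integrin alpha 6, was 27869.6 kb away with 2 peaks. A 24.0 kb region at the metallothionein gene MT2A on chromosome 16 was 24776 kb away and held no peak.

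The share of OCT-2-only regions varied between chromosomes. Both superenhancers of the OCT-2 cells on chromosome 13 were OCT-2-only, as were 5 of 6 on chromosome 16, 5 of 7 on chromosome 18 and 7 of 11 on chromosome 15. On chromosome 3 the count was 18 of 31, and on chromosome 4 it was 8 of 14. Chromosome 1 held the most OCT-2-only regions, 26 of its 86. On chromosome 11 they were 7 of 30, and on chromosomes 22 and X they were 0 of 5 and 0 of 2. These counts are a description, without a test, and copy number was not examined.

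Neighbouring OCT-2-only regions formed 22 groups in which each lay within 500 kb of the next, with 46 of the 204 regions. A group of 3 on chromosome 1 spanned 448 kb around JUN and FGGY and held 5 peaks, with widths of 59.8, 54.5 and 58.2 kb. Pairs lay among others at CXCL8 and CXCL2, at TM4SF18 and WWTR1, at DLX2 and ITGA6, and within CHST11 and DOCK2. A shared superenhancer stood between neighbours in 2 of the 24 adjacent pairs, once between both regions near JUN (40.1 kb, 3 peaks) and once between PRKCH and HIF1A (187 kb, 6 peaks).

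OCT-2-only superenhancers had a lower median width than shared ones, given here as a description without a test. Their median width was 73.0 kb, with quartiles of 45.2 and 105 kb and a range of 10.6 to 231 kb, against a median of 94.0 kb, quartiles of 68.9 and 137 kb and a range of 5.68 to 471 kb in the shared class. Together they covered 16 Mb, against 34.5 Mb for the shared class. The widths overlapped widely. The widest OCT-2-only regions after that near CEBPB were at ARHGAP35 (220.2 kb, 3 peaks), ANO1 (195 kb, 2 peaks), which encodes a chloride channel, TM4SF18 (179 kb, 1 peak) and LOC107983989 (178 kb, 0 peaks).

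Most OCT-2-only superenhancers held OCT-2 binding. At least 1 OCT-2 peak was inside 149 of 204 (73.0%, exact 95% interval 66.4 to 79.0%), against 257 of 314 shared superenhancers (81.8%, 77.1 to 86.0%) and 78.4% of all 518. The odds ratio was 0.60 (95% interval 0.39 to 0.94), a difference with an adjusted p of 0.043 in a two-sided Fisher exact test over regions, adjusted by the Benjamini-Hochberg method over 2 tests. Between regions of like width the difference did not pass the test: within width quartiles the odds ratio was 0.82, with an adjusted exact p of 0.81. Regions, not replicates, are the units, so the p-values cover counting error over regions and not the spread between replicates. They take regions as independent, although 46 of the 204 OCT-2-only regions lay in groups of neighbours within 500 kb.

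The widest superenhancers held a peak most often in both classes. In the narrowest quartile, 48 of 75 OCT-2-only regions (64%) and 36 of 55 shared regions (65.5%) held a peak. In the second quartile the shares were 64.7% of 51 OCT-2-only and 79.5% of 78 shared regions, and in the third 81.6% of 49 and 78.8% of 80. In the widest quartile, from 123 kb, 28 of 29 OCT-2-only regions (96.6%) and 96 of 101 shared regions (95%) held one. The second quartile is the one in which the shares lay farthest apart.

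**Figure D2:**
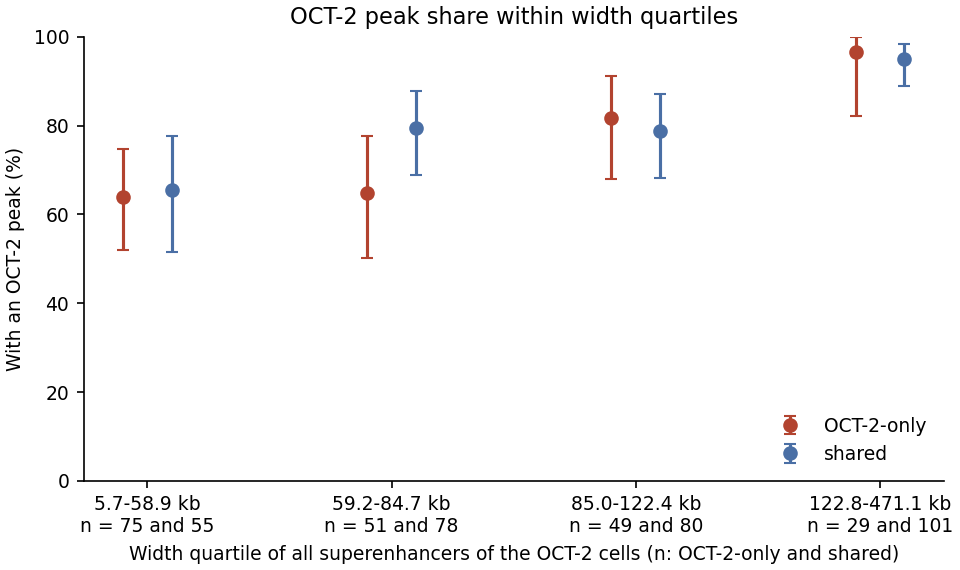
Share of superenhancers with an OCT-2 peak (%, vertical axis) in 4 width quartiles of all superenhancers of the OCT-2 cells, OCT-2-only left of shared. Points are shares and bars are exact 95% intervals; the shares are highest in the widest quartile in both classes and the intervals overlap in every quartile.

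The 149 regions with binding held 260 OCT-2 peaks, 4.53% of all 5736, and the shared class held 644. A single peak was in 73 OCT-2-only regions, and 51 held 2, 17 held 3, 6 held 4 and 2 held 5. Regions with 5 or more peaks were 2 of 204 in the OCT-2-only class and 32 of 314 in the shared class, where the most in 1 region was 11. Per length, the OCT-2-only class held 16.3 peaks per Mb and the shared class 18.7.

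**Figure D3:**
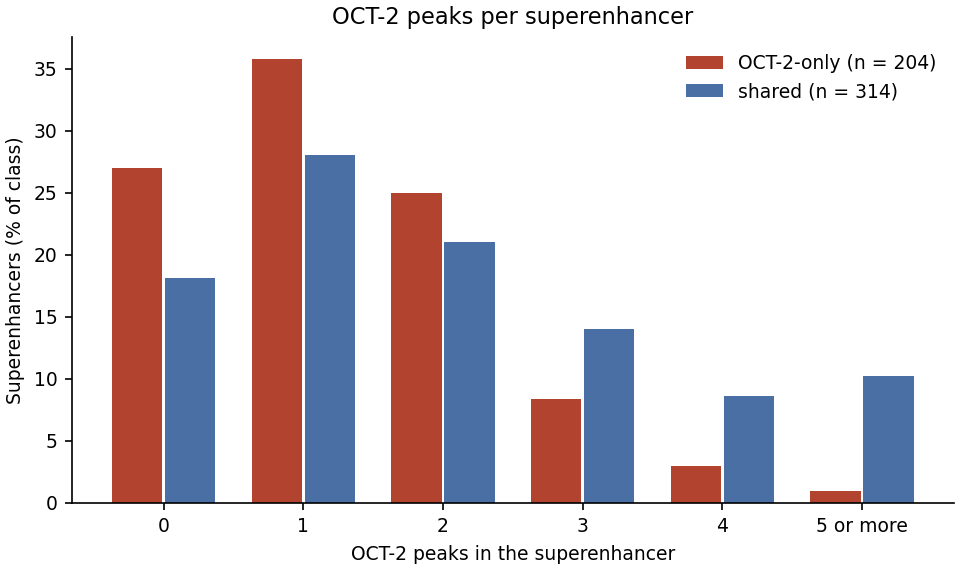
Superenhancers by the number of OCT-2 peaks inside (horizontal axis), as a percentage of their class, OCT-2-only bars left of shared bars. The OCT-2-only class stands higher at 0 to 2 peaks and the shared class at 3 or more.

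The region at chr11:102219966-102349793 (129.8 kb), 1 of the 2 with 5 peaks, spanned the end of YAP1, all of BIRC3 and the first part of BIRC2. Its peaks included 1 centred 157 bases from the BIRC3 start and 1 centred 423 bases from the BIRC2 start. The other, at chr6:41877640-41977785 (100.1 kb), held a start of CCND3, the cyclin D3 gene, and the genes BYSL, of ribosome biogenesis, and MED20, a Mediator subunit. The nearest control superenhancer was 109 kb from the CCND3 region and 5876 kb from the BIRC3 region. Regions with 4 peaks included those at MAP4K3, PDGFC, GPANK1, APPL2 and RAB31. The densest binding was in a 14 kb region at CSF3 with 2 peaks, or 143 per Mb, and the 10 densest also included regions in TMCO4 (19.2 kb, 104 per Mb), near ANGPTL5 (19.6 kb, 102 per Mb), at MRPS10 (32.9 kb, 91.3 per Mb) and in ADAMTS6 (23.1 kb, 86.4 per Mb).

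**Figure D4:**
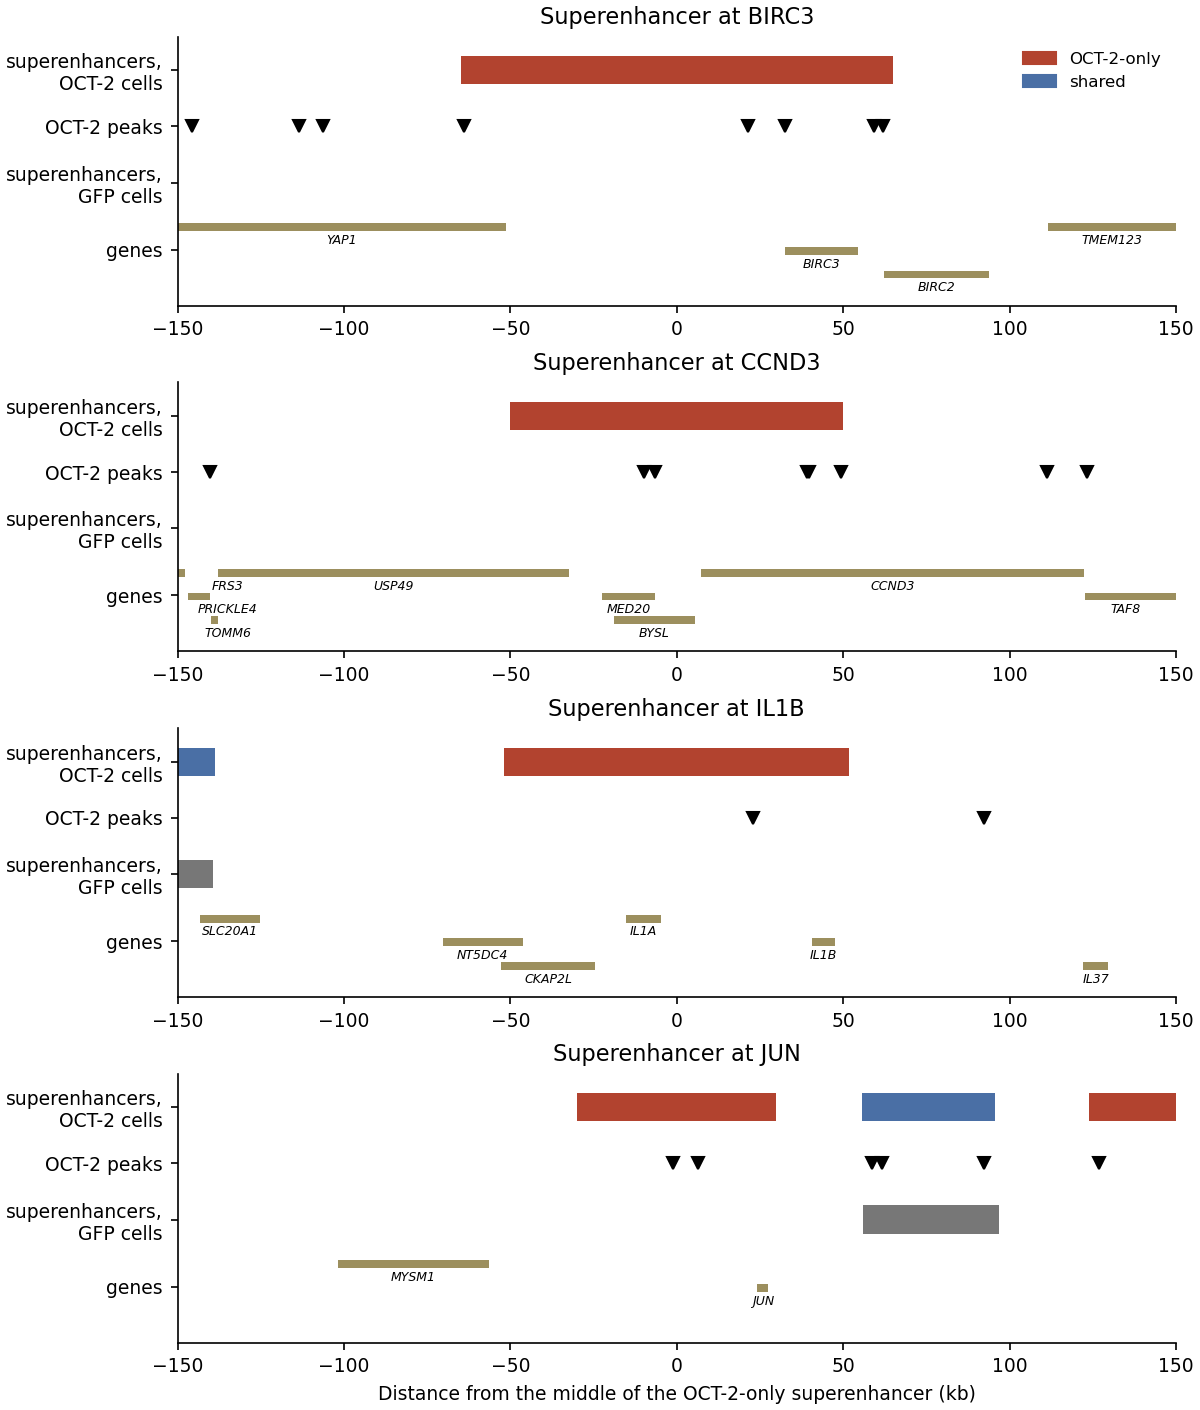
Maps of 4 OCT-2-only superenhancers (BIRC3, CCND3, IL1B, JUN) by distance from the middle of the region (kb): superenhancers of the OCT-2 cells, OCT-2 peaks (triangles), superenhancers of the GFP cells and protein-coding genes. The BIRC3 and CCND3 regions hold 5 peaks each; the control superenhancer 109 kb from the CCND3 region lies just past the edge of its map. In the lowest map the JUN region is followed by a shared superenhancer before the next OCT-2-only region.

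Peaks inside OCT-2-only regions lay mostly in gene bodies and between genes, as did all OCT-2 peaks. On the chromosomes with starts in the promoter table, 21 of 247 peaks (8.50%, exact 95% interval 5.34 to 12.7%) were centred within 1 kb of a protein-coding start, against 6.77% in shared regions and 8% of all peaks. A further 119 (48.2%) lay in gene bodies and 107 (43.3%) between genes, against 43.9% and 49.3% in shared regions. Over all peaks these shares were 45.7% and 46.2%. Inside the regions, 45% of peaks lay closer to the middle than to an end, against 50.3% in shared regions.

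Binding reached a start of 22 protein-coding genes inside OCT-2-only superenhancers. A gene can have several starts, and some of those used, such as those of WWTR1, RARB and BYSL, lie inside the gene body. Of 247 genes with a start there in the table, 22 (8.91%) had an OCT-2 peak within 1 kb of it, against 45 of 520 genes (8.65%) in shared superenhancers and 3.13% of all 15812 genes. They included BIRC3, BIRC2 and WWTR1. PRRC2A and BAG6, a chaperone gene, lay in the GPANK1 region, whose C6orf47 start also had a peak. BYSL and MED20 lay in the CCND3 region, and MRPS10, a mitochondrial ribosomal protein gene, in the next OCT-2-only region along the chromosome. The closest peak was centred 22 bases from the start of RNF167, a ubiquitin ligase gene, and the same peak lay 244 bases from the start of SLC25A11, a mitochondrial carrier gene. RARB, the retinoic acid receptor beta gene, had its peak 777 bases away, and CREB3L1, a membrane-bound transcription factor, 329 bases away. The others were HDGF, IFRD2, RGL2, KRTAP2-4, KRTAP4-6, BAHCC1, AP2S1, TMEM160 and TOP1.

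The 55 OCT-2-only regions without a peak had a median width of 59.6 kb, and those with one had 80.0 kb. The peakless regions lay a median of 91.1 kb from the nearest OCT-2 peak. Just 1 of them, in LTBP2, was within 10 kb of a peak, and 27 of 55 were over 100 kb away. The 57 peakless shared regions lay farther from a peak, a median of 143 kb, with 2 within 10 kb and 36 over 100 kb away. The most distant OCT-2-only regions were in CDH13 (1916 kb), at LOC107983989 (974 kb) and at STK10 (683 kb).

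The OCT-2-only superenhancers met the bodies of 351 protein-coding genes, 1.76% of all 19974, and the shared superenhancers met 714, or 3.57%. With the nearest gene of each region alone, the OCT-2-only count was 198. Exactly 1 such gene was met by 94 OCT-2-only regions, 2 to 4 by 53 and 5 or more by 17. The most, 14, were met by the SYNGR3 region and by a 133 kb region at HYAL3. The 10 genes that met both classes were long ones, such as RAD51B, MACF1 and ZMIZ1. To meet both, a gene must span the gap between superenhancers, so length is part of that choice. Of 985 genes on 31 lists, 37 met an OCT-2-only superenhancer, in 34 regions, of which 26 (76.5%) held an OCT-2 peak. Of these 37 genes, 17 had a peak in the gene body, which for LTBP2 and SKI lay outside the superenhancer. The share of all protein-coding genes with a peak in the body is not given here, so that count has no comparison. Counts on lists are descriptions, set beside the 1.76% of all protein-coding genes, and several lists hold few or long genes. Nothing about the expression of these genes was measured here.

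Among secreted factors, 6 of 93 interleukins, chemokines and colony-stimulating factors (6.45%) met an OCT-2-only superenhancer, against 3 (3.23%) that met a shared one, and these genes are short (median length 6.24 kb, all protein-coding genes 24.2 kb). They were IL1A, IL1B, CXCL8, CXCL2, TNF and CSF3. IL1A and IL1B, both interleukin-1 cytokines, lay in a single region of 104 kb, 87.6 kb from a control superenhancer. That region held 1 peak, 17.4 kb from IL1B and 27.5 kb from IL1A. CXCL8, a neutrophil-attracting chemokine, lay in a 40.7 kb region without a peak, 4785 kb from the nearest control superenhancer. CXCL2, a related chemokine, had a region of its own of 63.5 kb with 1 peak, 10.3 kb from the gene. TNF, the tumour necrosis factor gene, was in a 42.4 kb region with no peak and 6 protein-coding genes. CSF3, which encodes granulocyte colony-stimulating factor, was the one of the 6 with a peak in the gene body. The shared class held CSF1, LIF and OSM instead.

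Of growth factor, ephrin and semaphorin ligands, 4 of 72 (5.56%) met an OCT-2-only superenhancer: PDGFC, SEMA3B, SEMA7A and SEMA4B. PDGFC, a platelet-derived growth factor, lay in a 69.6 kb region that held 4 peaks, all in the gene body, and the gene also met a shared superenhancer. The semaphorin regions held 1 peak for SEMA3B and 0 for SEMA7A and SEMA4B. Of the ligands and latency proteins of the TGF-beta superfamily, 1 of 36 (2.78%) was met, LTBP2, whose region had no peak.

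TGFBR2, the type II TGF-beta receptor gene, was the one of 13 TGF-beta and BMP receptors that met an OCT-2-only region, and none met a shared one. Its region of 117 kb at chr3:30577162-30693792 held 2 peaks, 1 of them in the gene, and lay 13157 kb from a control superenhancer. A 90.4 kb gene-poor region with 2 peaks preceded it by 205 kb. Of 26 integrins, 3 met an OCT-2-only region (11.5%) and 4 a shared one. ITGA6 lay with its start in a 55.1 kb region with 2 peaks, both in the gene. ITGA10, a collagen-binding integrin, and ITGB2, the beta chain of leukocyte integrins, lay in regions with 1 peak each. Of 87 cytokine and chemokine receptors, 1 (1.15%) was met, TNFRSF1A, a receptor for tumour necrosis factor, in a region without a peak. No receptor tyrosine kinase of 54 met an OCT-2-only region, against 4 at shared regions (EPHA2, EGFR, MUSK and AXL).

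Signalling genes included both coactivators of the Hippo pathway. YAP1 and WWTR1, which encode YAP and TAZ, and CRIM1 were 3 of 28 Hippo genes (10.7%), against 5 at shared regions. WWTR1 contained the whole of its 105 kb region, 7421 kb from a control superenhancer, with 1 peak at a start that lies inside the gene body. YAP1 reached 13.5 kb into the region with BIRC3 and had 4 peaks in its body, 1 of them in that region. CRIM1, which met both classes, contained a 55.9 kb region with 1 peak. In nuclear factor kappaB signalling, 3 of 31 genes (9.68%) were met, against 5 at shared regions. They were BIRC2 and BIRC3, which encode cellular inhibitors of apoptosis, and NFKBIZ, a nuclear IkappaB protein, in a 139 kb region with 1 peak that was 75.7 kb from the gene.

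Of 23 SMADs, co-repressors and inhibitors of differentiation, 3 were met (13%), against 2 at shared regions. SKI, a SMAD co-repressor, met a 67.9 kb region without a peak, TGIF1, also a co-repressor, a 21 kb region with 1 peak in the gene, and ID1, an inhibitor of helix-loop-helix factors, a 98.9 kb region with 2 peaks, 48.2 kb from a control superenhancer. ID1 was also the 1 of 26 metastasis genes known from MDA-MB-231 sublines to meet this class, against 4 at shared regions. Of 65 Wnt and Notch genes, DKK1, a secreted Wnt inhibitor, was the one that was met (1.54%), in a 52.0 kb region with no peak.

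Lists of transcription factors had 0 to 2 genes each at OCT-2-only regions. JUN was the one of 18 AP-1 and small MAF genes (5.56%), against 5 at shared regions (FOSB, FOSL1, FOSL2, JUND and MAFF). Its region, chr1:58726660-58786454, held 2 peaks, the nearer 17.7 kb from the gene. ELK3, an ETS factor, was 1 of 27 (3.70%), in a 63.2 kb region with 1 peak, and FOXP1 was 1 of 46 FOX genes (2.17%), in an 82.8 kb region inside the gene with 3 peaks. Of 48 nuclear receptors, 2 were met (4.17%): RARB, in an 89.6 kb region with 1 peak, and NR2F2, an orphan receptor, in a 108 kb region with 2 peaks that lay 57.3 kb and more from the gene. No member of the C/EBP (6 genes), KLF (18), SOX, GATA and RUNX (29) or POU (18) lists met an OCT-2-only region. At shared regions the counts for these lists were 0, 2, 2 and 1.

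Of the genes of hypoxia and glycolysis, 3 of 25 (12%) were met in each class. HIF1A started inside a 113 kb region with 1 peak, 33.7 kb from the gene. ADM, the adrenomedullin gene, lay in a 105 kb region with 3 peaks, and HK2, hexokinase 2, in an 88.2 kb region with 2 peaks. In the list of cell cycle and survival, CCND3 was 1 of 29 (3.45%), with 4 peaks in the gene, 3 of them in the region. No laminin or collagen gene of 56 met an OCT-2-only region, against 6 at shared ones, including LAMC1 and LAMB3. Of 71 matrix proteases and inhibitors, ADAMTS16 and ADAMTS6, both secreted proteases, were met (2.82%), in regions of 50.1 and 23.1 kb inside the genes with 1 and 2 peaks, against 5 at shared regions.

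**Figure D5:**
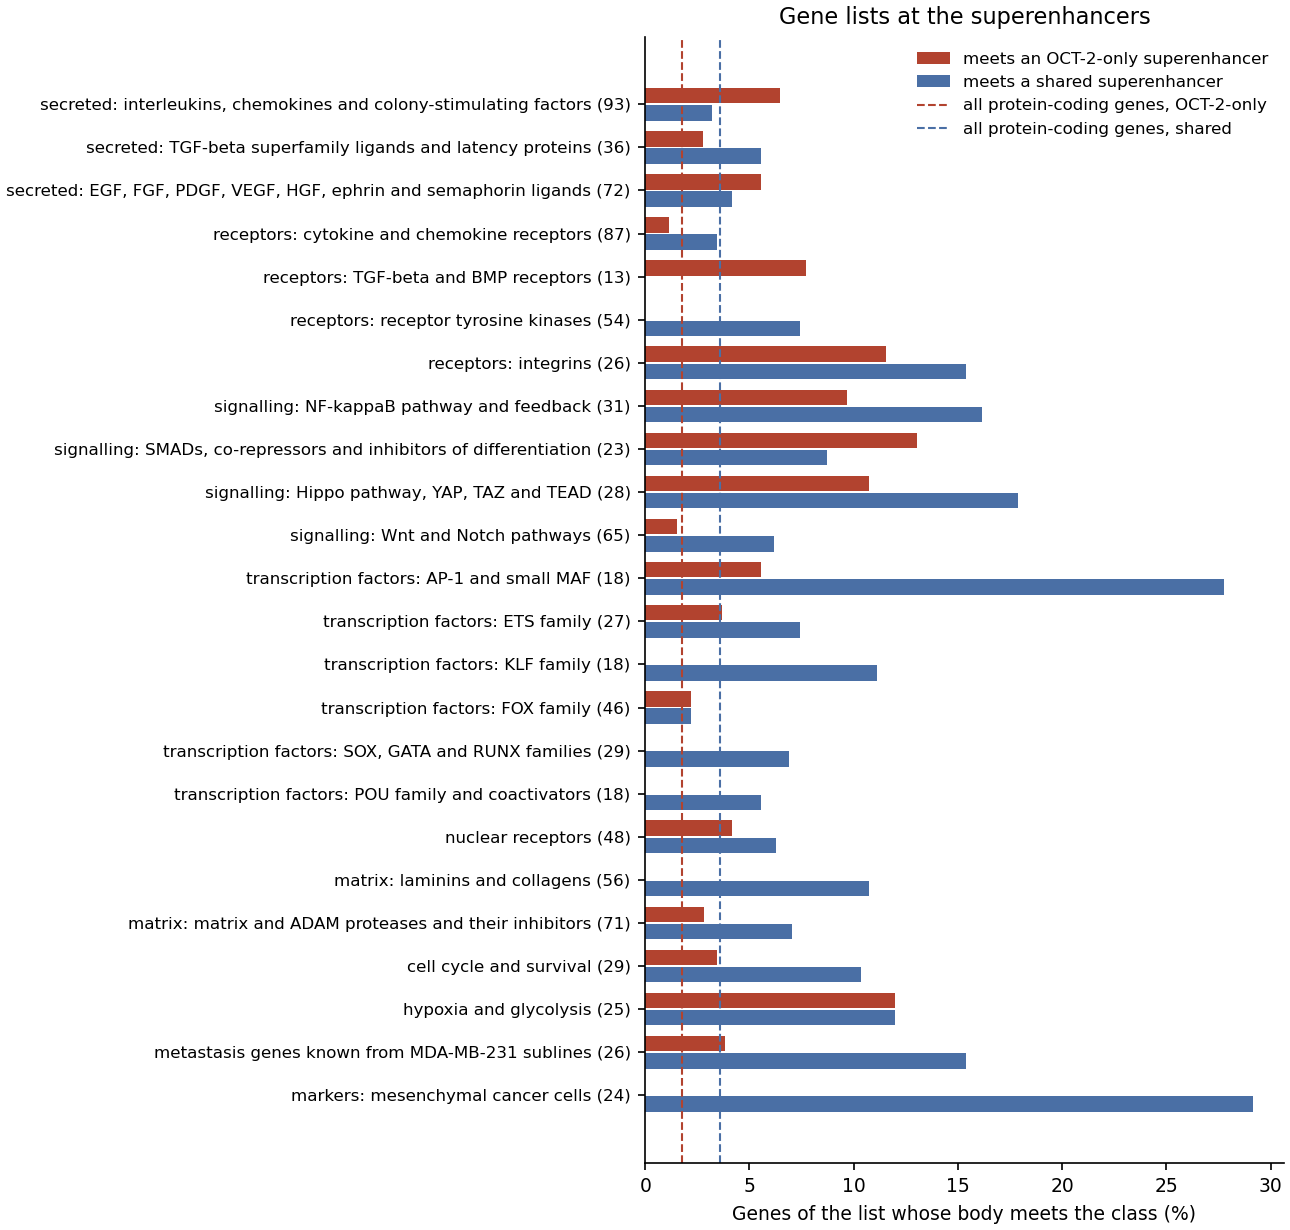
Share of each gene list whose bodies meet an OCT-2-only superenhancer (upper bar) or a shared one (lower bar), in percent, with the number of genes in brackets; dashed lines are all protein-coding genes (1.76% and 3.57%). Lists met by neither class are not drawn. The OCT-2-only bar is the longer one for cytokines, growth factor ligands, TGF-beta receptors and SMADs; with few genes a list these are descriptions.

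No protein-coding gene was met by 40 of 204 OCT-2-only superenhancers (19.6%, exact 95% interval 14.4 to 25.7%), against 49 of 314 shared ones (15.6%, 11.8 to 20.1%). The difference did not pass the two-sided Fisher exact test over regions (odds ratio 1.32, 95% interval 0.81 to 2.14, adjusted p = 0.28), which does not show that the shares are equal. The median width was 56.4 kb in these 40 regions and 77.0 kb in the 164 OCT-2-only regions that met a protein-coding gene. OCT-2 peaks were in 29 of the 40 (72.5%) and in 120 of the 164 (73.2%), with 15.4 and 16.5 peaks per Mb. Of the 49 gene-poor shared regions, 45 (91.8%) held a peak.

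The 40 gene-poor regions lay a median of 72.8 kb from the nearest protein-coding gene, with 16 within 50 kb and 16 beyond 100 kb. In the shared class that median was 90.5 kb. The most isolated was an 85.2 kb region on chromosome 1, 695 kb from CHRM3, with 1 peak. On chromosome 21 a 27.2 kb region without a peak lay 593 kb from its nearest gene. Neighbouring regions on chromosome 9, of 19.3 and 124 kb with 1 peak each, lay 525 kb from PSAT1 and 517 kb from TLE4. A 41.3 kb region with 1 peak was 375 kb from ACTL7B. A long non-coding RNA gene was met by 31 of the 40 gene-poor regions and by 387 of all 518 superenhancers of the OCT-2 cells. No annotated gene was met by 7 of the 40, against 4 of the 49 gene-poor shared regions. A region without any annotated gene is gene-poor by definition, so all 518 are no comparison here. Among the 7 was a 60.1 kb region with 2 peaks 204 kb from USP24.

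MicroRNA genes were inside 24 of the 204 OCT-2-only superenhancers, 29 genes in all, against 84 genes in the 314 shared superenhancers. The shared class covered more of the genome, 34.5 Mb against 16 Mb, and the share of all microRNA genes is not given here. Of the 29, 28 had mature sequences in the RefSeq table (41 sequences). Those of the 3 gene-poor regions are shown because they are the small RNA genes of regions that hold no protein-coding gene. Capitals mark the seed, bases 2 to 8.
hsa-miR-205-5p: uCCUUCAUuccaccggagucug
hsa-miR-205-3p: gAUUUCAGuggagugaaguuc
hsa-miR-6072: uCCUCAUCacacugcaccuuag
hsa-miR-4293: cAGCCUGAcaggaacag

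MIR205, known for its part in epithelial cells, lay on the plus strand near the end of chr1:209353743-209436091, an 82.3 kb region 191 kb from a control superenhancer. Its 1 OCT-2 peak was 42.6 kb from the microRNA. MIR6072, on the minus strand of chromosome 10, was in the 178 kb region at LOC107983989, the fifth widest of the class, which had no peak. MIR4293, also on the minus strand of chromosome 10, lay in a 79.6 kb region with 1 peak, 6.72 kb from FRMD4A. These 4 mature sequences had 4 different seeds. Over the 41 mature sequences 1 seed occurred more than once, in the sequences below, from regions on different chromosomes.
hsa-miR-5787: gGGCUGGGgcgcggggaggu
hsa-miR-4505: aGGCUGGGcugggacgga

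MIR5787 lay on the plus strand of chromosome 3 in the HYAL3 region, 65 kb from its peak and 0.99 kb from a peak outside it, and MIR4505 on the plus strand of chromosome 14 in a 101 kb region at MIDEAS with 3 peaks, the nearest 1.99 kb away.

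The names of the intervals hold a position that is read here, from its values, as a centre of the merged calls, since the sources used here do not describe it. That position lay off the middle of the interval by more than 1% of its width in 55 of 204 OCT-2-only regions (27%, exact 95% interval 21 to 33.6%) and in 89 of 314 shared regions (28.3%, 23.4 to 33.7%). Among the regions named above, offsets over 10 kb included 19.9 kb at LOC107983989, 18.6 kb at ANO1, 17.7 kb at RAB31, 16.9 kb at BIRC3, 11.3 kb at NR2F2 and 10.1 kb at HIF1A, while the offset was 0.01 kb at GPANK1 and 0.02 kb near CEBPB.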

How the data were processed

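Intervals of 3 ChIP-seq groups were used: H3K27ac superenhancers of 231Pa_Luc+OCT-2 and 231Pa_Luc+GFP cells and OCT-2 peaks of 231Pa_Luc+OCT-2 cells, each merged by the authors from 2 replicates. The deposited values are positions (start, end and a name read here as a centre and a number of merged calls) and other values such as counts, scores or signal are not among them, so depth and replicate spread are unknown. Per the labels' protocols, 5 µg of antibody and 15 PCR cycles were used; tools listed without roles or thresholds in the submitters' processing notes are bedtools, HOMER, Bowtie and Bowtie2 (2.2.2.6). The calling of superenhancers and peaks is not described in the labels, nor whether replicates were separate cultures. The other 7 deposited lists are in hg19 and were not used; no coordinates were converted.

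Coordinates are hg38, 1-based; 5 OCT-2 peaks on other contigs were left out. Gene bodies were those of RefSeq on GRCh38.p14 (59098 genes, 19974 protein-coding), starts from a RefSeq promoter table that covers 15812 of these; starts on chromosome 8 were not used. Overlap means 1 bp or more. Shares were compared by two-sided Fisher exact tests over regions, Benjamini-Hochberg adjusted over 2 tests (threshold 0.05), also within 4 width quartiles (Mantel-Haenszel odds ratio, exact conditional p). Intervals are Clopper-Pearson 95% and cover counting error only. The planned octamer test in peaks was not run because no genome sequence was used.

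Genes named are fixed-list genes at the regions, the nearest genes of the widest, most bound, densest, nearest, farthest, gene-richest and most isolated regions, microRNA genes inside them, and genes with an OCT-2 peak within 1 kb of a start; others are named as examples, and some of the genes and 1 gene list are not reported here. The regions and lists were chosen with earlier results of these data known. Overlap code and tests were tested on simulated data. Python 3.11.15, numpy 2.4.6, scipy 1.17.1 and matplotlib 3.10.9 were used.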

Additional observations from a re-analysis of the deposited data

How the results depend on the processing

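Of 45 recomputed values, 37 kept their direction and their side of the threshold or stayed within a tolerance, and none reversed. The tolerance was 1.5 times for counts, the exact 95% interval for shares and the quartiles for the median distance. Some of the 37 could not have changed and do not show stability. They came from a low limit of coverage and a short limit of distance, which both chose the same 204 regions. The least covered shared region was covered over 35.8% of its width, and the smallest gap of an OCT-2-only region was 24.8 kb. Both limits lay below these values. Restricting the OCT-2 list to its 337 widest regions, as many as the control list holds, left 106 OCT-2-only superenhancers, raised their share with a peak to 81.1% and lowered the share without a protein-coding gene to 14.2%. The lower share with an OCT-2 peak in OCT-2-only than in shared superenhancers no longer passed the exact test in that restricted list (odds ratio 0.69, adjusted p = 0.51), with regions covered under 50% by control counted as OCT-2-only (0.62, p = 0.059), within width quartiles (0.82, p = 0.81), and without regions whose named centre lay off the middle by over 1% of width (0.65, p = 0.14), an alternative chosen after seeing the data. Over all its alternatives that adjusted exact p ranged between 0.015 and 0.81. The cause was not tested, beyond the widths given above. Assigning each region its nearest gene alone gave 198 protein-coding genes. No paired analysis was possible because the deposited lists hold merged replicates without values per replicate, and for the same reason no replicate could be left out. Without counts or scores, neither a stricter calling threshold nor the H3K27ac level in the control cells could be examined.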

Other observations

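Some genes outside the fixed lists were noticed on reading through the regions and are given here as values, chosen after their values were seen. NAMPT, which encodes an enzyme of NAD synthesis, started inside a 73.3 kb OCT-2-only superenhancer on chromosome 7 with no OCT-2 peak, 24488 kb from the nearest control superenhancer. STC2, which encodes the secreted hormone stanniocalcin 2, lay in a 45.2 kb region with 1 peak, 92.7 kb from a control superenhancer.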
